A study of Mus musculus with 8 samples.

Results

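GLI1-only regions are stretches of the mouse autosomes where both anti-FLAG ChIP-seq libraries of GLI1 have a listed peak and neither library of GLI2 has one. Members were chosen by the presence of peaks in the 4 deposited lists: peaks overlapping by at least 1 bp were merged into union regions, and a region was kept when it held a GLI1 peak of replicate 1 and of replicate 2 and no GLI2 peak. Of 134568 autosomal union regions, 6388 met this rule, which is 4.75% of them, and together they covered 11.4 Mb. The mirror class, with both GLI2 lists and no GLI1 list, held 6455 regions, or 4.8%, and serves below as the reference. These counts are what the rule selects, so they are given without a test.

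GLI proteins are zinc-finger transcription factors that carry the Hedgehog signal into the nucleus. When a Hedgehog ligand binds the receptor Patched, the membrane protein Smoothened is released from inhibition and GLI proteins become active. GLI1 acts as an activator and is itself a transcriptional target of the pathway, whereas GLI2 is a main mediator of the response and can be processed into a repressor. Their DNA-binding zinc fingers are closely related and recognise similar sequences.

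The study concerns Tsix, an antisense repressor of Xist, and Hedgehog signaling at the onset of X inactivation. All libraries came from female F1-2.1 mouse embryonic stem cells with an rtTA (Tet-on) transactivator and a tetracycline-regulated transgene for GLI1-3xFLAG or for GLI2-3xFLAG. Both lines were grown with LIF on irradiated fibroblast feeders, which were settled away at harvest, and both received 1 µg/mL doxycycline to induce the transgene and 100 nM SAG, a Smoothened agonist, for 72 hours (day 0). The tagged proteins are therefore expressed from a transgene with the pathway switched on in both groups. The labels do not say whether each line is 1 clone. Each factor had 2 ChIP libraries, which the labels call biological replicates, and 2 inputs, which were not analysed here. Neither cells without a tagged transgene nor sequencing reads were analysed here. Library depth is therefore unknown, and the intervals given cover the counting of peaks only. Genes, sequences and motifs at the regions were not analysed here, because the files are in mm9 coordinates and the reference tables at hand are of another build. Cell identity could not be checked against marker genes for the same reason. Positions are mm9, counted from 1.

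The lists differ in how they were made. The labels name a cutoff of 1e-4 for both GLI1 lists and of 1e-5 for both GLI2 lists, and they carry s50 in the names of the replicate 1 lists and s20 in those of replicate 2. On the autosomes the GLI1 lists held 40624 and 52822 peaks in replicates 1 and 2, and the GLI2 lists 25374 and 46187. The factor and the cutoff thus cannot be told apart in any count of GLI1-only against GLI2-only regions.

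Members were a small part of both GLI1 lists. They took 6392 peaks of GLI1 replicate 1, or 15.7% of that list (95% exact interval 15.4 to 16.1), and 6398 peaks of GLI1 replicate 2, or 12.1% (11.8 to 12.4). Most of the remaining GLI1 peaks appeared in no other list, at 68.7% of replicate 1 and 71.3% of replicate 2. Among regions with peaks in exactly 2 lists, the GLI1 pair (6388) and the GLI2 pair (6455) were the most frequent combinations. The 4 pairs that mix the factors held 4552 regions for the replicate 2 lists, 1638 for the replicate 1 lists, and 1728 and 940 for lists of different number. Lists of one factor share a cutoff and lists of one number share the setting s. What these counts owe to the factor, the cutoff or the setting was not tested.

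**Figure D1:**
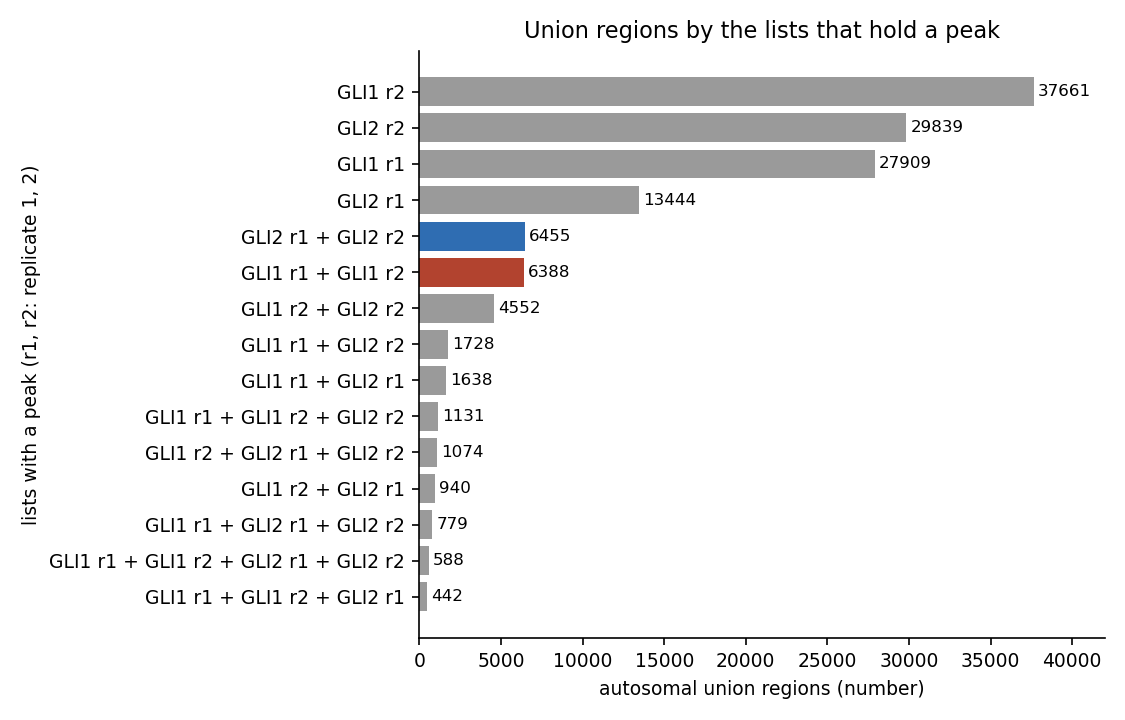
Number of autosomal union regions (horizontal axis) for each combination of lists that hold a peak (vertical axis; r1 and r2 are replicates 1 and 2), with the GLI1-only class in red and the GLI2-only class in blue. The 6388 GLI1-only and 6455 GLI2-only regions are the largest combinations of more than 1 list, and 588 regions have a peak in all 4.

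Most recurrent GLI1 regions had no listed GLI2 peak, but GLI1 regions in general lacked one more often. Of the 8549 autosomal regions with a peak in both GLI1 lists, 74.7% (73.8 to 75.6) had no GLI2 peak and are the members. With GLI1 replicate 2 left out of the merging, the share was 84.6% among all regions with a peak of GLI1 replicate 1. With GLI1 replicate 1 left out, it was 83.6% among all regions with a peak of GLI1 replicate 2. A further 1131 regions (13.2%) met a peak of GLI2 replicate 2 alone, 442 (5.17%) a peak of GLI2 replicate 1 alone, and 588 (6.88%) a peak of both. In the reverse direction 72.6% (71.6 to 73.5) of 8896 recurrent GLI2 regions had no GLI1 peak. The count of members rests on both GLI1 libraries: without GLI1 replicate 1 it became 44109 and without GLI1 replicate 2 it became 34358, because a single list then stood for recurrence. Judged against a single GLI2 list it rose only to 6828 (without GLI2 replicate 1) and 7527 (without GLI2 replicate 2).

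Few recurrent GLI1 regions lay at the edge of the rule. Just inside it, 12 members touched a GLI2 peak without overlapping it, 22 lay 200 bp away and 53 lay 400 bp away. Examples are the regions of chromosome 1 from 169823601 to 169825400 and of chromosome 4 from 129734201 to 129736000, each 1800 bp wide, with authors' replicate 1 scores of 64.9 and 61.1. Just outside it, 9 of 2161 excluded recurrent GLI1 regions overlapped a GLI2 peak by 400 bp or less, and the median of the largest overlap was 1200 bp. Among the excluded ones, the region of chromosome 1 from 122635001 to 122640000 overlapped a GLI2 peak by 200 bp and had a score of 68.1.

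Within a member, the 2 replicate peaks mostly lay on top of each other. A single peak of each GLI1 list made up 6374 of the 6388 members, and the other 14 held 2 peaks of one list. The peak of one replicate lay wholly within that of the other in 80.4% of members (79.5 to 81.4), and 882 members (13.8%) had the same start and end in both lists. The median overlap was 1200 bp and the centres of the peaks lay a median of 100 bp apart. All peaks begin and end on a grid of 200 bp. An overlap of a single step of that grid was found in 62 members (0.971%). In 45.2% of members the replicate 2 peak sat inside a longer replicate 1 peak, against 21.4% with the reverse nesting. In GLI2-only regions these nestings were even, at 32.8% and 33.7%. The whole lists differed likewise: all autosomal peaks had a median width of 1400 bp in GLI1 replicate 1 and 1200 bp in GLI1 replicate 2. That median was 1200 bp in both GLI2 lists.

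Members were narrow, with a second and smaller group of broad ones. Region widths ran from 1000 to 6200 bp with a median of 1600 bp. Of all members, 83.5% (82.6 to 84.4) were 1800 bp or narrower, and the commonest widths were 1600 bp (1691 regions) and 1800 bp (1629 regions). The number dropped to 227 at 2000 bp and 46 at 2400 bp, and then rose again to 105 at 3200 bp and 102 at 3600 bp. Regions of 3000 bp or more made up 9.25% of members (8.55 to 9.99), 6.71% of GLI2-only regions (6.11 to 7.35) and 3.48% of all autosomal union regions. A union of 2 or more peaks can only be as wide as or wider than each of them, so the last share is lower in part by construction. Breadth was not particular to members. Peaks of 3000 bp or more made up 3.54% of their GLI1 replicate 1 peaks and 5.44% of their GLI1 replicate 2 peaks. In recurrent GLI1 regions with a GLI2 peak these shares were 7.03% and 9.18%.

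In their own class, peaks had a median width of 1400 bp in GLI1 replicate 1 and 1200 bp in GLI1 replicate 2, and of 1400 bp in both GLI2 lists. The GLI1 median was 1300 ± 141 bp and the GLI2 median 1400 ± 0 bp (SD, n = 2 lists each). Widths move in steps of 200 bp, so these medians and SDs are coarse. Of the 6398 member peaks of GLI1 replicate 2, 1861 were 1000 bp wide and 1343 were 1200 bp wide. That is barely more than a median of 1200 bp needs. The difference of -100 bp was smaller than the SD of the GLI1 lists (p = 1, exact permutation test, two-sided, with 0.333 as the smallest p that 2 lists per factor can give). Membership rests on overlap, in which width takes part. Members made up 11.5% of GLI1 replicate 1 peaks of 1000 bp and 25.2% of those of 2000 to 2800 bp. Factor and cutoff cannot be told apart in widths either, so the test cannot decide on a difference between the factors. The difference was 200 bp without GLI2 replicate 1 and also without GLI2 replicate 2. It was 0 bp without GLI1 replicate 2 and -200 bp without GLI1 replicate 1. With a list left out, its factor was represented by peaks that need not recur, set against recurrent peaks of the other factor. Peaks found in a single GLI2 list had a median width of 1200 bp in both replicates. These settings therefore do not compare like with like. With every list in use, mean widths went the other way from the medians. They were 1521 and 1436 bp for GLI1 and 1409 and 1466 bp for GLI2, a difference of 40.6 bp (exact permutation p = 0.667). The mean difference was 112 bp within replicate 1 and -30.6 bp within replicate 2.

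The authors' score, which is usable in replicate 1 alone, lay below 50 in most members. In GLI1 replicate 1 their peaks scored between 40.0 and 166, with a median of 49.0 and quartiles of 44.4 and 57.1. No source used here names the unit of the score. Peaks found in GLI1 replicate 1 alone had a median of 46.3, and recurrent GLI1 peaks with a GLI2 peak a median of 50.7, so members lay between them. These values come from a list that helped to choose the members, and they are a description. A score of 50, where the GLI2 replicate 1 list begins, was reached by 37.4% of all autosomal GLI1 replicate 1 peaks (median score 46.9). Member peaks reached it in 2971 cases, or 46.5% (45.3 to 47.7). With that minimum in both replicate 1 lists, the class would therefore hold 2971 regions in place of 6388, while the GLI2-only class would hold 6939. Of the 6392 member peaks, 3156 shared their score with another member peak, and the commonest score, 40.7, stood at 42 peaks of a single chromosome. Fine ranks by score are therefore not meaningful.

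Score and width went together only over part of the range. Member peaks 1000 bp wide had a median score of 43.5, those of 1600 bp a median of 51.8 and those of 1800 bp a median of 60.5. Peaks of 2000 to 2800 bp reached 66.5, but those of 3000 bp or more fell back to 51.5. The share with a score of at least 50 followed the same course, at 16.6%, 59.0%, 81.2%, 81.5% and 60.2% in these 5 groups.

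Recurrent GLI1 peaks with high scores had a GLI2 peak somewhat more often than those with low scores. When GLI1 replicate 1 peaks were ranked by score, 83.4% (79.9 to 86.4) of the recurrent ones in the bottom decile had no GLI2 peak, against 70.0% (67.7 to 72.3) in the top decile. The course between was uneven, with 71.1% in decile 3 and 80.8% in decile 4. Width moved with the score, from a median of 1000 bp in the lowest decile to 1800 bp in the highest, and its part in the difference was not tested. By replicate 1 width, the share without a GLI2 peak was 76.9% at 1000 bp, 77.0% at 1200 bp, 73.4% at 1400 bp, 74.9% at 1600 bp and 75.3% at 1800 bp. Among peaks of 1800 bp or less the shares were 82.8% and 71.9%, a difference of 10.9 percentage points in place of 13.3. Against a single GLI2 list the difference was 10.3 points (without GLI2 replicate 1) and 10.1 points (without GLI2 replicate 2), and without chromosomes 2 and 9 it was 13.4. Peaks of 3000 bp or more stood lower, at 59.6% (54.5 to 64.6) by replicate 1 width and 63.4% (59.2 to 67.4) by replicate 2 width. Of all GLI1 replicate 1 peaks, recurrent or not, members made up 11.0% in the bottom score decile and 26.4% in the top one. Recurrent peaks numbered 535 and 1529 in these deciles. Since both the score and recurrence come from the GLI1 lists and the deciles were looked at after the results were known, these shares are a description.

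**Figure D2:**
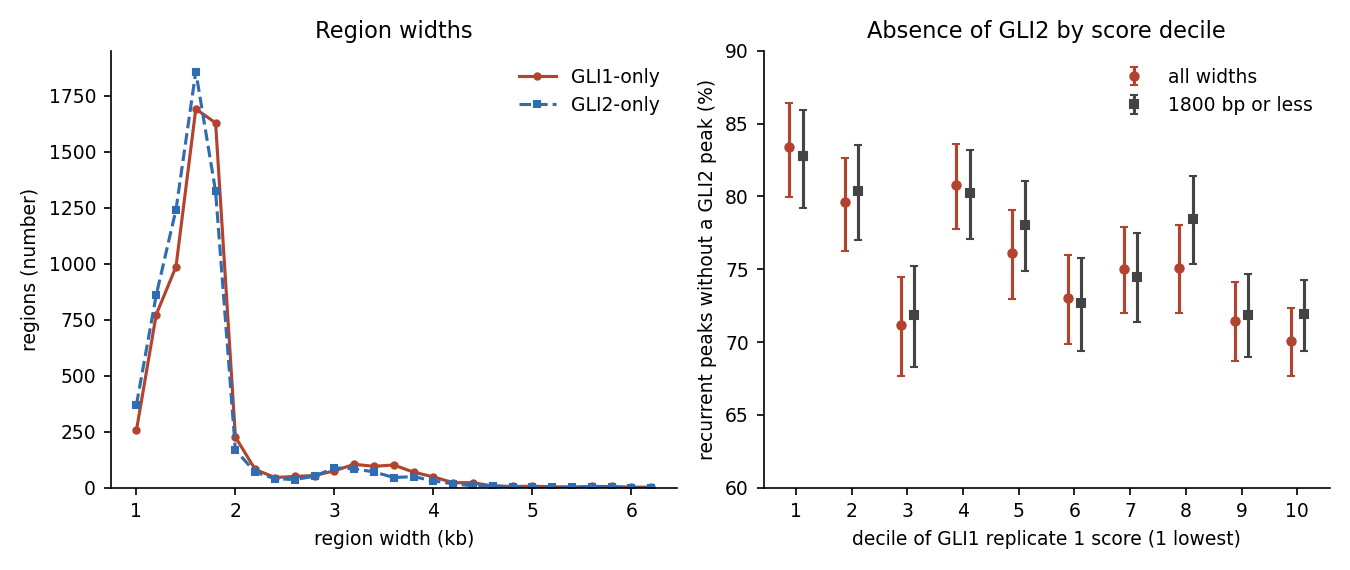
Left, number of GLI1-only (red circles) and GLI2-only (blue squares) regions by region width in kb; right, percent of recurrent GLI1 replicate 1 peaks without a GLI2 peak in each score decile, for all peaks (red) and for peaks of 1800 bp or less (dark squares), with 95% exact intervals and a vertical axis that begins at 60%. Widths pile up at 1600 and 1800 bp with a low second rise above 3000 bp, and the share falls unevenly from 83.4% to 70.0%.

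Members occurred on every autosome at similar density, except on chromosomes 2 and 9. The median autosome had 2.82 members per Mb, counted from its first to its last peak. Chromosome 2 had 1.39 per Mb (249 members) and chromosome 9 had 1.45 per Mb (175 members), below all others, which ran from 2.29 per Mb on chromosome 7 to 3.16 per Mb on chromosome 10. GLI2-only regions were low on the same chromosomes, at 1.29 and 1.31 per Mb. Union regions were scarcer there too, at 41.1 and 40.3 per Mb against 50.1 to 62.8 on the other autosomes. This did not hold for the peaks of every list. GLI1 replicate 2 had 3358 peaks on the 178.7 Mb of chromosome 2 and 2289 on the 121.0 Mb of chromosome 9. These were denser than its 2697 peaks on the 149.5 Mb of chromosome 7. GLI1 replicate 1 had 1809, 1048 and 2404 peaks on chromosomes 2, 9 and 7. Members made up 3.39% of the union regions of chromosome 2 (2.99 to 3.83) and 3.59% of those of chromosome 9 (3.08 to 4.15), while the other autosomes ran from 4.07% to 5.31%. The share of recurrent GLI1 regions without a GLI2 peak was not lower on these chromosomes. It was 80.3% (75.5 to 84.6) on chromosome 2 and 78.1% (72.1 to 83.4) on chromosome 9, and between 71.6% and 78.6% on the others. Over the 19 autosomes, Spearman's rho between the densities of GLI1-only and GLI2-only regions was 0.44, and 0.22 without chromosomes 2 and 9. Chromosome 6 had 452 members and 377 GLI2-only regions, chromosome 12 had 323 and 402, and these were the widest departures from parity in number. The rule left out 289 further regions of the same pattern on X, and none lay on Y.

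**Figure D3:**
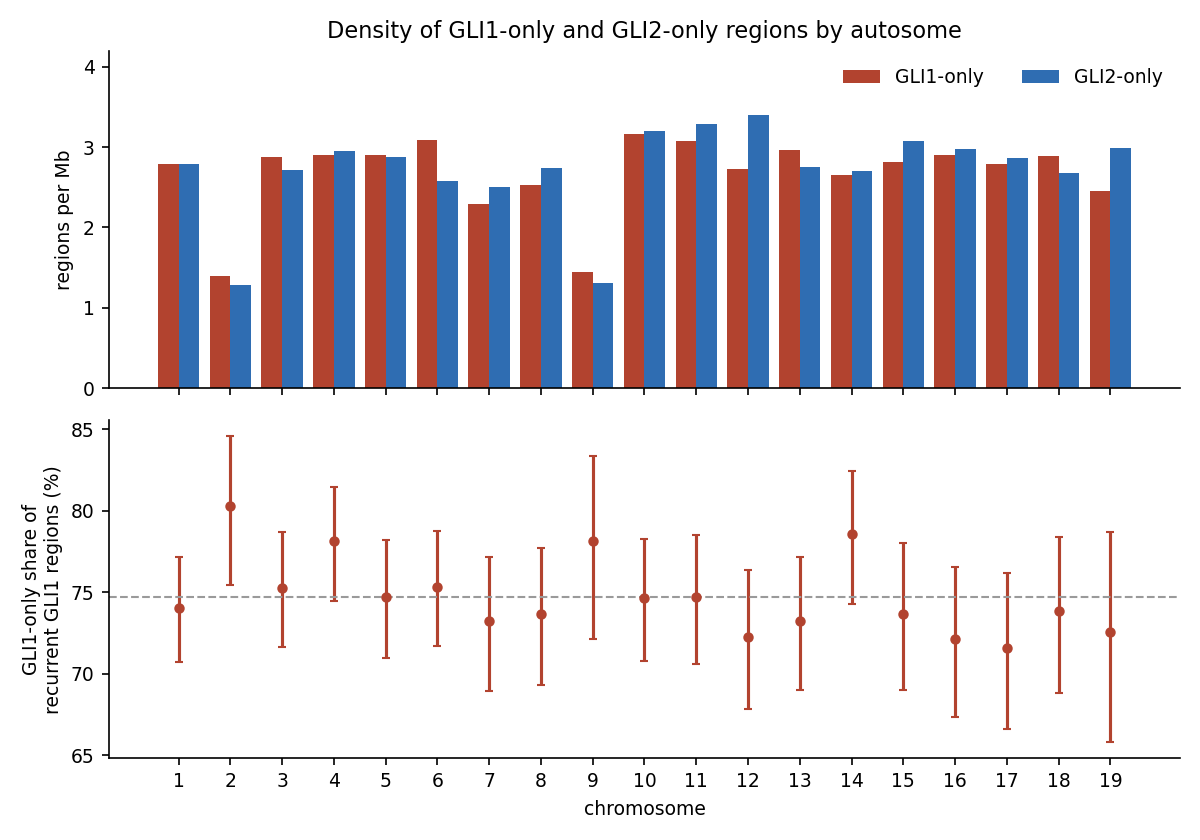
Top, GLI1-only (red) and GLI2-only (blue) regions per Mb on each autosome; bottom, percent of recurrent GLI1 regions that have no GLI2 peak, with 95% exact intervals, a dashed line at the value for all autosomes and a vertical axis that begins above 0. Chromosomes 2 and 9 have the fewest regions per Mb of both classes, and their shares of 80.3% and 78.1% lie above the dashed line.

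Along the chromosomes, members were more frequent towards the end with the highest coordinates, the end away from the centromere in mouse autosomes. The last 10% of the span held 875 members, or 13.7% (12.9 to 14.6), and the first 10% held 527, or 8.25% (7.59 to 8.95). The last 10% held more members than the first on 18 of 19 autosomes, chromosome 17 being the exception with 31 against 37. In the GLI2-only class the same ends held, last before first, 656 (10.2%, 9.44 to 10.9) and 642 (9.95%, 9.23 to 10.7), and the last was ahead on 10 autosomes. All union regions lay between, at 11.7% and 9.14%. The pattern was not particular to members: recurrent GLI1 regions that did have a GLI2 peak held 16.1% (14.5 to 17.7) in the last 10%, and regions in all 4 lists 17.2% (14.2 to 20.5).

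All 4 lists had more peaks in the last 10% than in the first, with the widest gap in GLI1 replicate 2. The inputs were not examined for it. The first 10% held 8.56% and 8.31% of all autosomal peaks in GLI1 replicates 1 and 2, and 9.06% and 10.3% in the GLI2 lists. The last 10% was ahead on 18 and 17 autosomes in the GLI1 lists, and on 14 and 10 in the GLI2 lists. Regions found in GLI1 replicate 2 alone had 14.1% in the last 10% of the span, against 10.3% in GLI1 replicate 1 alone, 10.3% in GLI2 replicate 1 alone and 10.1% in GLI2 replicate 2 alone. Over all their autosomal peaks, the GLI1 lists had 11.2% and 14.0% there, a mean of 12.6 ± 1.99% (SD, n = 2 lists). Both GLI2 lists had 10.8%. The exact permutation test gave p = 0.333, the smallest that 2 lists per factor can give, so it cannot decide on a difference. This measure was not planned, and factor and cutoff cannot be told apart in it. GLI1 minus GLI2 was 0.382 percentage points within replicate 1 and 3.20 within replicate 2. Without GLI1 replicate 2, the regions of GLI1 replicate 1 with no GLI2 peak had 11.0% there. The share was 14.2% among members whose replicate 1 score was 50 or more.

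**Figure D4:**
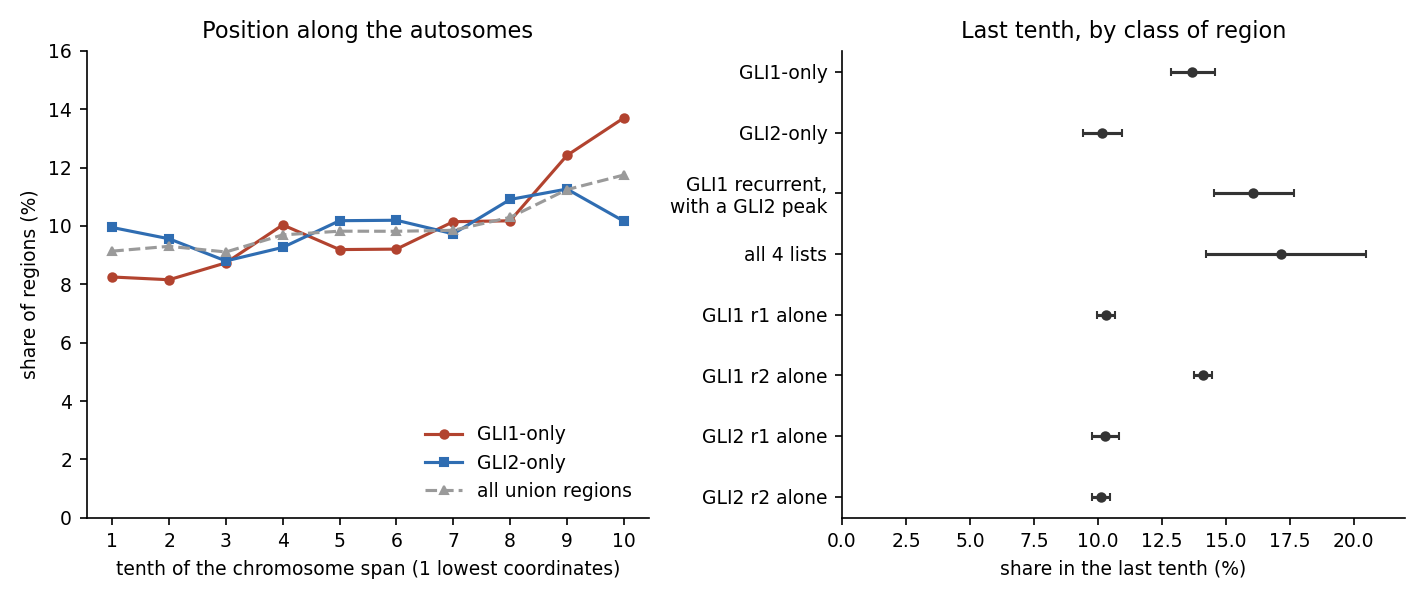
Left, percent of GLI1-only, GLI2-only and all union regions in each of 10 equal parts of the chromosome span; right, percent in the last part for classes of region and for regions found in a single list (r1 and r2 are replicates 1 and 2), with 95% exact intervals. GLI1-only regions rise from 8.25% to 13.7%, GLI2-only regions begin at 9.95% and end at 10.2%, and of the single lists GLI1 replicate 2 lies highest at 14.1%.

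Although they hold no GLI2 peak, members were often close to one. The GLI2 lists held 25374 and 46187 peaks on 2414 Mb of autosomes. How much of this nearness the density of the lists alone gives was not tested. The nearest GLI2 peak of either list lay a median of 12.4 kb away, with quartiles of 4.8 and 25.4 kb. A GLI2 peak lay within 1 kb of 350 members (5.48%), within 5 kb of 1671 (26.2%), within 10 kb of 2766 (43.3%, 42.1 to 44.5) and within 100 kb of 6349 (99.4%). The nearest peak of GLI2 replicate 1 lay a median of 31.0 kb away and that of GLI2 replicate 2, the longer list, 16.8 kb. The share of members within 10 kb depended on both GLI2 lists. Leaving GLI2 replicate 2 out of both the choice of members and the distance gave 21.7%, and leaving out GLI2 replicate 1 gave 33.3%. Regions of a single GLI1 list lay at like distances. Regions of GLI1 replicate 1 alone had a GLI2 peak within 10 kb in 42.3% of cases (41.7 to 42.9) and a median distance of 12.8 kb, and regions of GLI1 replicate 2 alone in 43.3% (42.8 to 43.8) with a median of 12.4 kb. The share was 41.4% to 46.1% in quintiles of the member score and followed no order. GLI2-only regions were nearer to a GLI1 peak, at a median of 9000 bp and 53.7% (52.5 to 54.9) within 10 kb, in lists that hold more GLI1 than GLI2 peaks.

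**Figure D5:**
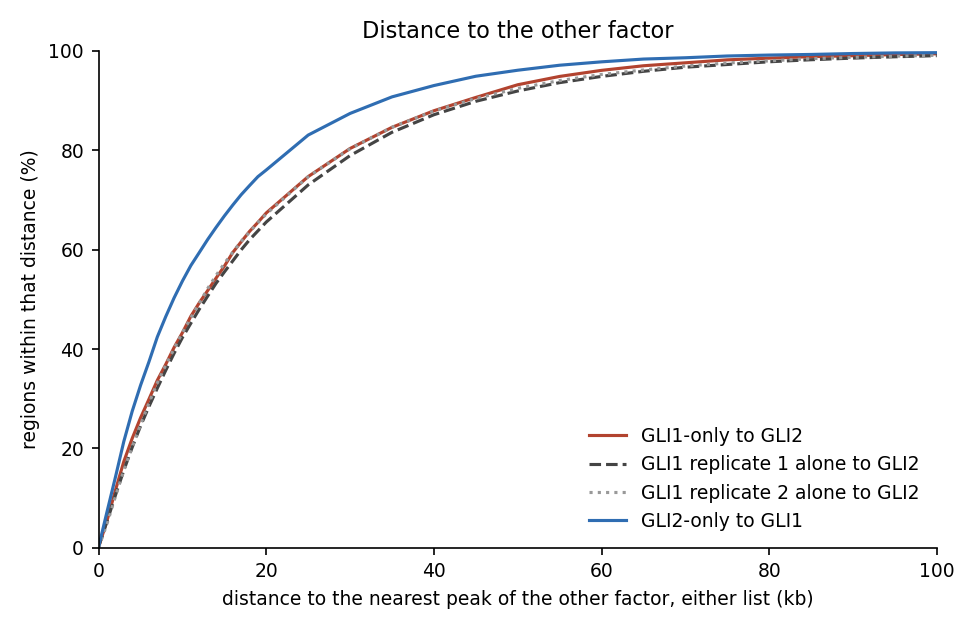
Percent of regions (vertical axis) with a peak of the other factor, in either list, within a given distance in kb (horizontal axis), for GLI1-only regions, for regions of a single GLI1 list and for GLI2-only regions. The GLI1-only curve runs close to those of the single GLI1 lists, near 43% at 10 kb, and the GLI2-only curve lies above them at 53.7%.

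Most members had no other member within 50 kb, while 1752 of them (27.4%) did. The next member lay a median of 110100 bp away, and 46.3% (45.1 to 47.6) had one within 100 kb. The corresponding values of GLI2-only regions were 112600 bp and 46.2%. Spacing depended on recurrence: without GLI1 replicate 1 or GLI1 replicate 2 the class was far larger, and the median distance to the next region was 16200 and 22400 bp. Stricter lists widened it, to 240600 bp with replicate 1 scores of 50 or more, 256800 bp with lists of equal length and 277300 bp in the better-ranked 50% of peaks. When members within 50 kb of each other were linked, 4636 stood alone, 658 pairs and 111 triplets were formed, and 3 runs held 5 members, the highest number. One run lay on chromosome 1 from 135961401 to 136066000, with 9 and 8 peaks in the GLI1 lists and 1 peak in each GLI2 list. Another lay on chromosome 5 from 119385401 to 119462200, with 7 and 9 GLI1 peaks, no peak of GLI2 replicate 1 and 3 of GLI2 replicate 2. The run on chromosome 18 from 38703201 to 38829800 held 2 GLI2-only regions as well, and had 7 and 12 GLI1 peaks beside 6 and 6 GLI2 peaks.

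In windows of 1 Mb the number of members ran from 0 to 12, with a median of 2 and a variance 1.503 times the mean. The ratio was 1.419 for GLI2-only regions. Of 2426 windows, 330 (13.6%) held none, among them 10 with no union region at all, and 274 held no GLI2-only region. Members and GLI2-only regions occurred together in 1896 windows. Whether that number departs from independent placement was not tested. The fullest window, on chromosome 1 from 166000001 to 167000000, had 12 members and 4 GLI2-only regions, with 40 and 37 GLI1 peaks and 11 and 18 GLI2 peaks. The 6 windows with 10 members differed in their share of GLI2-only regions. On chromosome 18 from 84000001 to 85000000 there was no GLI2-only region, with 25 and 30 GLI1 peaks and 8 and 10 GLI2 peaks. A single GLI2-only region was found in the windows of chromosome 6 from 127000001, of chromosome 10 from 67000001 and of chromosome 11 from 112000001. The windows of chromosome 5 from 133000001 and of chromosome 18 from 38000001 held 4 and 7. The windows were picked for their members, so these numbers carry no test.

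Long stretches had no member. The longest lay on chromosome 7 from 39345001 to 47655000 and spanned 8.31 Mb, with 15 and 27 GLI1 peaks and 9 and 18 GLI2 peaks. It was poor in peaks of every list, with 62 union regions. The next lay on chromosome 2 from 36027601 to 41556800 (5.53 Mb) and from 119091801 to 124552600 (5.46 Mb). Those stretches held 180 and 203 union regions, among them 5 and 7 GLI2-only regions.

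The best ranked members combined a high replicate 1 score with a broad replicate 2 peak, since replicate 2 has no usable score and was ranked by width. The first lay on chromosome 14 from 13183401 to 13187800, with a score of 114, a 4200 bp peak in replicate 2 and the nearest GLI2 peak 39.2 kb away. The second lay on chromosome 3 from 73473601 to 73477400, with a score of 161, a 3600 bp replicate 2 peak and a GLI2 peak 46.2 kb away. The third, on chromosome 4 from 21636401 to 21640400 with a score of 108, had a peak of GLI2 replicate 2 only 0.8 kb away. The fourth, on chromosome 14 from 81283001 to 81286600, was broad in both replicates, at 3600 bp each, scored 106 and had no GLI2 peak for 75.8 kb. These 4 places differ in how isolated they are from GLI2.

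The other 6 best ranked members had scores of 83.0 to 96.6. They were on chromosome 6 from 127958001 to 127962400, with a GLI2 peak 9.8 kb away, and from 145122401 to 145126000, with one 10.4 kb away. On chromosome 5 they lay from 133341201 to 133344800 and from 127658201 to 127662000, 24.4 and 27.8 kb from a GLI2 peak. The last of them lay on chromosome 11 from 71846601 to 71852200, 1.2 kb from a GLI2 peak, and on chromosome 1 from 136059001 to 136062600, 28.4 kb from one and within the run of 5 members on that chromosome. All 10 were 3600 to 5600 bp wide. The region with the highest score of all, 166, was named after its value was seen and was narrow: it lay on chromosome 16 from 37384001 to 37385800, with peaks of 1800 and 1400 bp in replicates 1 and 2, and a GLI2 peak 22.4 kb away.

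The widest members were lopsided between the replicates. On chromosome 15 from 10854001 to 10860200 the replicate 2 peak was 6200 bp wide and the replicate 1 peak 1400 bp. On chromosome 1 from 75372801 to 75379000 they were 6000 and 1600 bp, and on chromosome 7 from 116062601 to 116068600 they were 6000 and 1400 bp. On chromosome 13 from 53354401 to 53360600 the replicate 1 peak was the broad one, at 6200 against 1000 bp. The fifth, on chromosome 14 from 31225601 to 31231600, had 3600 bp in replicate 1 and 3000 bp in replicate 2. Breadth of these regions therefore rested on a single library in 4 of 5 cases.

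The members farthest from any GLI2 peak lay on chromosomes 2, 13 and 3. On chromosome 2 the region from 148596601 to 148598200 (score 73.0) had no GLI2 peak for 311.8 kb, and that from 138384201 to 138386000 (score 74.8) none for 218.6 kb. The neighbouring regions of chromosome 13 from 56455201 to 56456800 (score 52.5) and from 56431201 to 56433200 (score 40.6) shared a stretch without GLI2 peaks, at 191 and 167 kb. The fifth lay on chromosome 3 from 119741401 to 119742600 (score 43.5), 166.2 kb from a GLI2 peak. Each of these regions was 2000 bp wide or less.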

How the data were processed

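The submitters' processing notes name CASAVA 1.7, BWA and the mm9 build. No source used here names the peak caller. Each ChIP library had its own list, and lists were matched to samples by factor, day and replicate of the title. Peaks carry a score that the authors deposited, in an unstated unit. In replicate 2 it was 0 for nearly all peaks, and those lists were ranked by width.

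Union regions, classes, distances (bases between the edges of regions) and widths were computed with Python 3.11.15 (scipy 1.17.1, pandas 2.3.3, numpy 2.4.6; matplotlib 3.10.9 for plots). Code was tested on simulated lists. Tests over lists were exact permutation tests. Intervals of shares are exact (Clopper-Pearson) at 95%, and neighbouring peaks are not independent. Named regions are the 10 best by the worse of the percentile ranks of replicate 1 score and replicate 2 width, the 5 widest, the 5 farthest from a GLI2 peak, and the fullest 1 Mb windows, of which 7 are given because of a tie. Members and these choices were set with earlier results of these data known. Alternatives covered overlap, peak width, joining, score, list length, wide peaks, a margin and each list left out. Planned gene, GC and motif measures were not run, for want of a matching genome.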

Additional observations from a re-analysis of the deposited data

How the results depend on the processing

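Of 12 alternatives, 7 left the number of GLI1-only regions within 1.5 times of 6388, between 4717 and 7527. It fell to 2971 with replicate 1 scores of at least 50, to 2709 with lists of equal length and to 2520 when only the better-ranked 50% of peaks were used. It lay between 6828 and 44109 when a list was left out. GLI2-only regions numbered 4653 with lists of equal length, against the 2709 GLI1-only ones. They fell to 2503 in the better-ranked 50% and lay between 7243 and 36330 when a list was left out. The GLI1-only share of recurrent GLI1 regions was 76.4% with a reciprocal overlap of 50%, 76.6% with peaks set to 500 bp, 72.3% with scores of at least 50, 76.5% with equal lists, 75.8% without the widest 1% and 80.0% in the better-ranked 50%. It was 55.2% when no GLI2 peak was allowed within 5000 bp, and 79.9 to 88.2% when a list was left out. Fewer peaks or lists entered the score, length, rank and left-out settings by construction. For the overlap and 500 bp settings the cause was not tested.

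The median width difference (GLI1 minus GLI2) turned from -100 bp to 100 bp with scores of at least 50 and with lists of equal length. It was 0 bp with peaks joined within 500 bp and in the better-ranked 50%, and ran from -200 to 200 bp when a list was left out. With lists of equal length and in the better-ranked 50%, the replicate 2 lists were cut by width itself. Those settings therefore cannot decide on a width difference. With a list left out, its factor was represented by peaks that need not recur. For the other settings the cause was not tested. No exact permutation p was below 0.333. With the replicate number as a replicate block the width difference was -100 bp (exact permutation p = 1). The labels do not say that a number marks shared cultures. Deviations of same-numbered lists over 2426 windows correlated at 0.19. The width difference could not be computed for peaks set to 500 bp, and GC content, GLI motifs and gene starts were not run.

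The share of members in the last 10% of their chromosome was 13.6 to 15.0% under the alternatives other than leaving out GLI1 replicate 2, which gave 11.0%. The share with a GLI2 peak within 10 kb was 33.3% when GLI2 replicate 1 was left out, 21.7% when GLI2 replicate 2 was left out, and 26.6% in the better-ranked 50%.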
